A study of Mus musculus with 6 samples.

Results

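Messenger RNA of 4 mouse induced pluripotent stem cell (iPSC) lines, made from fibroblasts, was set beside that of 1 Flox/Flox embryonic stem cell (ESC) culture. These 5 libraries were taken from the 6 of the series by their labels, and no measured value entered the choice. The source of an iPSC line was the peritoneal (PF) or the tail tip fibroblast (TTF), and 1 line from each source was labelled 4N+ and 1 was labelled 4N-, marks that the labels do not spell out. Each line had 1 library at passage 25 and the strain label 129Sv/C57 mix. The ESC came from embryos of strain 129Sv, were also at passage 25, and carried both copies of the H2A.X gene flanked by recombination sites, as the undeleted control of a Cre knockout. All cultures grew on feeder cells with the cytokine LIF and were moved to gelatin before lysis to take the feeders away. How the reprogramming factors were delivered and which H2A.X allele the iPSC lines carried are not stated in the labels. The H2A.X KO ESC library, which shares its deposited table and its strain with the Flox/Flox ESC, is given beside some results and enters no call.

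Mouse ESC kept in LIF are held near the naive state of the early epiblast by a network around Pou5f1, Sox2 and Nanog, with Esrrb, Klf4, Tbx3, Prdm14 and Zfp42 among its members. Reprogramming brings a fibroblast back to that state by silencing its own programme, such as collagens and Vim, and by reopening the network. Imprinted genes and many germline genes depend on DNA methylation, which is rewritten on the way, and they are known as places where iPSC and ESC lines can differ.

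The ESC side was 1 library and the 3 deposited tables were scaled separately. Cell type, strain and deposited table changed together between the groups and cannot be told apart. The labels do not give the H2A.X allele of the iPSC lines, and any difference in it cannot be told apart from these either. No test was made: 5 libraries split as 1 against 4 in 5 ways, so an exact permutation test could not go below p = 0.2. A gene was counted as different when all 4 lines lay at least 2-fold to the same side of the ESC, on log2(FPKM + 1) values shifted to a common median. FPKM are fragments divided by transcript length and by the depth of the library. The SD given with a mean difference is over the 4 lines and holds no error of the ESC. Each line is 1 culture, so this spread mixes line and technical differences. Effective depth, recovered from intronless receptor genes, lay between 43820000 and 60680000 fragments in the iPSC lines and was 49780000 in the ESC. The number of genes at 1 FPKM or more was 11144 to 11325 in the iPSC lines and 11031 in the ESC.

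Of 11934 genes measured (1 FPKM or more in at least 1 of the 5 libraries), 80 were at least 2-fold higher in all 4 iPSC lines (0.67%) and 63 were at least 2-fold lower (0.528%). Differences of any size that left the ESC outside the range of the lines were common. All 4 lines were above the ESC for 3848 genes (32.2%) and below it for 2966 genes (24.9%). Of the genes measured, 1034 passed the 1 FPKM minimum only through an iPSC line, which largely sets their direction, and over the other 10900 the shares were 28.8% above and 27.2% below. Line by line, the number of genes at least 2-fold higher than in the ESC was 354 in PF 4N+, 502 in PF 4N-, 329 in TTF 4N+ and 383 in TTF 4N-. The numbers at least 2-fold lower were 255, 257, 179 and 244 in the same order. Most of these genes were thus called in some lines and not in others, with 444 higher in exactly 1 line, 276 in 2 and 84 in 3. The 4 lines also differed among themselves, by at least 2-fold between the highest and lowest line for 816 genes (6.84% of those measured). Without the PF 4N+ line, the count of higher genes was 123 in place of 80. With the median of reference genes as the common level, which put the median difference of all measured genes at 0.24 in place of 0.04, 149 genes were higher and 39 lower, so that 79.3% of the calls were higher in place of 55.9%.

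Of the 80 higher genes, 61 reached 1 FPKM in the ESC, so most were already detected there. For the 63 lower genes, 43 were still at 1 FPKM or more in all 4 lines. No called gene carried a failed estimate in the deposited tables. Asked also to lie 2-fold beyond the H2A.X KO ESC, 22 of the higher and 18 of the lower genes passed.

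**Figure D1:**
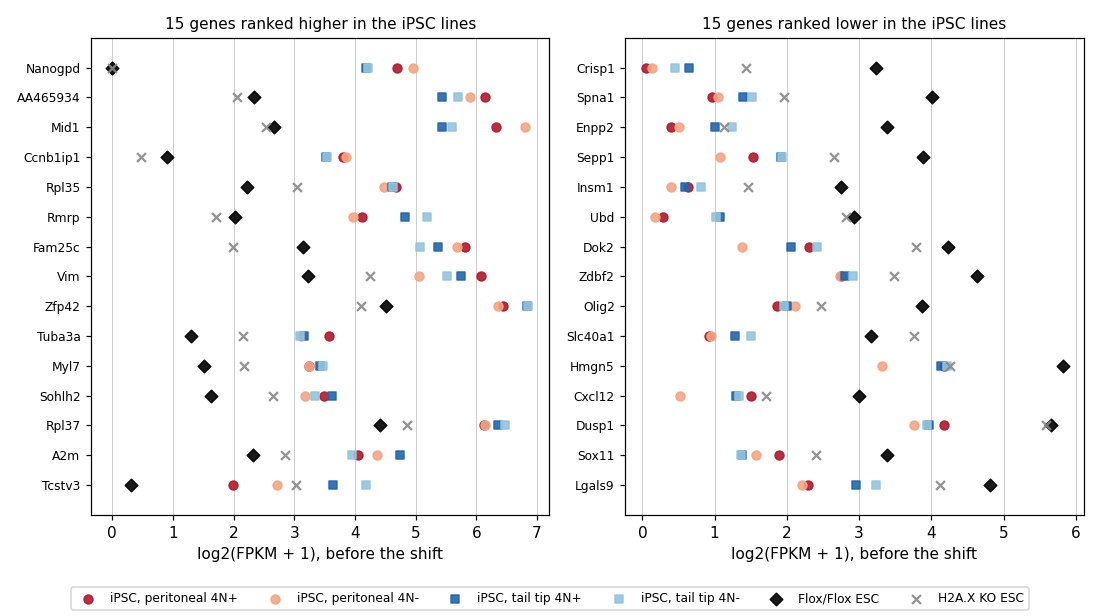
Levels of the 15 genes ranked highest and the 15 ranked lowest by the smallest of the 4 differences from the ESC, as log2(FPKM + 1) before the shift, with 1 point per library. In the left panel every iPSC point lies to the right of the black Flox/Flox ESC diamond and in the right panel every iPSC point lies to its left, which is how the genes were chosen. The grey cross of the H2A.X KO ESC lies among or near the iPSC points for Enpp2 and Hmgn5 and beside the Flox/Flox ESC for Mid1 and Ubd.

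Zfp42, which encodes the zinc finger protein REX1 and is a standard mark of naive cells, was among the genes ranked highest. It stood at 85.7 FPKM in PF 4N+, 81.1 in PF 4N-, 113 in TTF 4N+ and 115 in TTF 4N-, against 21.9 in the Flox/Flox ESC and 16.2 in the KO ESC. Every iPSC line was well above both ESC libraries, and the mean difference was 2.14 ± 0.26 (log2, SD, n = 4), or 4.42-fold. Sohlh2, a germ cell transcription factor, stood at 10.2, 8.0, 11.2 and 9.11 FPKM in the same order of lines against 2.09 in the ESC. All 4 lines were close to each other and apart from the ESC, with a difference of 1.82 ± 0.16, or 3.52-fold. The KO ESC, at 5.27 FPKM, lay between them. Stra8, a gene switched on by retinoic acid at the start of meiosis, was at 41.5, 45.0, 21.9 and 36.6 FPKM against 7.84 in the ESC, which is 4.18-fold. It belonged to no list and was picked after its values were seen.

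The start regions of these 3 genes are shown because the 3 were higher in every line and because CpG sites, the places of DNA methylation, are known to matter for germline and pluripotency genes. They cover 250 bases before to 50 after the start in RefSeq on GRCm38.p6, at chr8:43306960-43307259 (minus strand) for Zfp42, chr3:55181794-55182093 (plus strand) for Sohlh2 and chr6:34920698-34920997 (plus strand) for Stra8. Each is printed 5′ to 3′ with CpG in capitals.
Zfp42: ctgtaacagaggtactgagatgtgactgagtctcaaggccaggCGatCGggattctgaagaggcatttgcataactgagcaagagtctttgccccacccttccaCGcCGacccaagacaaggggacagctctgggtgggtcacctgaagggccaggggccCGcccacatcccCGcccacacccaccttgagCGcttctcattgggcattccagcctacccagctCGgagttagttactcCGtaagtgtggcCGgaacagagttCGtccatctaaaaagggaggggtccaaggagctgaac
Sohlh2: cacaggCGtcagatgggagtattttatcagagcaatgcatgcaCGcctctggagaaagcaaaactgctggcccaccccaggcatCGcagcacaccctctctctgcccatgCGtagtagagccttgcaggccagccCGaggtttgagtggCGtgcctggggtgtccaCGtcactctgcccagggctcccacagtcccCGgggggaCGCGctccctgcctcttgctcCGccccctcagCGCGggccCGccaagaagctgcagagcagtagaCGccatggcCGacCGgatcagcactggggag
Stra8: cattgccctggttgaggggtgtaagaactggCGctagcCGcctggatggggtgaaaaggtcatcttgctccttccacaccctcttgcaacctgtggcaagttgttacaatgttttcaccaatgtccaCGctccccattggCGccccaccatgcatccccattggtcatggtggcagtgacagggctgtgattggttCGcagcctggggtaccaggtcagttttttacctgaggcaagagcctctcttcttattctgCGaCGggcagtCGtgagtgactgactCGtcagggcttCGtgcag
The windows hold 11 CpG in Zfp42, 17 in Sohlh2 and 10 in Stra8, beside a median of 7 over the 32851 start regions of the same length in the table. Of those regions, 58.6% held fewer CpG than Zfp42, 68.6% fewer than Sohlh2 and 56.5% fewer than Stra8. None of the 3 windows was thus unusual in its CpG number. A comparison over all called genes was void, since 60.1% of them and 71.1% of the measured genes could be matched to a start region. DNA methylation was not measured.

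Other genes ranked highest had varied roles. Mid1 (chromosome X, 166123179 to 166428729 on mm9), a ubiquitin ligase bound to microtubules, was at 79.5, 111, 42.4 and 47.4 FPKM in PF 4N+, PF 4N-, TTF 4N+ and TTF 4N- against 5.32 in the Flox/Flox ESC and 4.78 in the KO ESC. The lowest line was 7.10-fold above the ESC, both ESC libraries were alike, and both PF lines were above both TTF lines. Other entries overlap it in the deposited tables, so reads may be shared. Vim, the intermediate filament of fibroblasts, was at 66.8, 32.3, 52.5 and 44.5 FPKM against 8.37 and 17.9 in the same ESC libraries. Ccnb1ip1, needed for crossing over in meiosis, was at 10.5 to 13.5 FPKM in the iPSC lines and 0.877 in the ESC, a difference of 2.81 ± 0.19. Rpph1, the RNA of RNase P, was also higher, at 4.22 to 17.3 FPKM against 0.653. In the GRCm38 annotation transcripts of Ccnb1ip1 overlap Rpph1, but their entries in the deposited tables (mm9) do not overlap. Whether their reads were shared was not tested. Rmrp, the RNA of the related RNase MRP, was at 14.7 to 35.5 FPKM against 3.07. The loci of Rmrp and Rpph1 each span less than 500 bases, and differences from the ESC followed transcript length. The part of length in the differences of Rmrp and Rpph1 was not tested.

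A2m, a protease inhibitor of plasma, was at 14.4 to 25.8 FPKM in the iPSC lines against 3.99 in the ESC. Tuba3a, a testis alpha-tubulin, was at 7.51 to 10.9 FPKM against 1.48, and its transcript is nearly identical to that of Tuba3b, so the reads could be split between them. Myl7, an atrial myosin light chain, was at 8.52 to 10.1 FPKM against 1.87. Fam25c was at 32.8 to 55.3 FPKM against 7.86. AA465934 was at 42.2 to 69.7 FPKM against 4.08, with overlapping entries at its locus. For each of these the smallest difference from the ESC was larger than the range over the lines.

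The entry ranked first, Nanogpd, is named for a Nanog pseudogene but lies at the locus of Nanog itself in the deposited tables (chromosome 6, 122657586 to 122663796 on mm9). It was at 24.9, 30.1, 17.1 and 17.6 FPKM in the iPSC lines and was listed at 0 in both ESC libraries, so no fold is given. Reads of Nanog and Nanogpd could not be told apart from these values. Nanog, a core factor of the network, was at 197, 228, 211 and 196 FPKM against 111 in the Flox/Flox ESC and 111 in the KO ESC. All 4 lines were above both ESC libraries, but at 0.93 ± 0.17, or 1.91-fold, the gene missed the 2-fold call.

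Across 37 naive and core pluripotency genes, all of them measured and at 1 FPKM or more in the ESC, no common direction was seen. The median difference was 0.10, beside 0.04 over all measured genes, and was -0.01 when chromosomes 6, 8, 11 and 17 were left out. In 11 genes (29.7%, beside 28.8% of genes at 1 FPKM or more in the ESC) the ESC lay below all 4 lines, in 11 (beside 27.2%) it lay above all 4, and in 15 it lay within their range. Called higher were 4 (Zfp42, Tcl1, Prdm14 and Tbx3), where 0.67% of all measured genes were, and called lower none. Of the genes taken as defining pluripotent cells, some lay near the ESC and some did not. Dppa5a was at 1020 to 1112 FPKM in the lines and 1264 in the ESC, and Tdgf1 at 584 to 756 against 772. Zfp42, Nanog and Klf4, also defining genes, were 4.42-fold, 1.91-fold and 1.70-fold higher in the lines on average. Sox2 was 1.31-fold lower.

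Prdm14, which holds back differentiation signals and DNA methylation in naive cells, was at 9.09, 10.6, 15.1 and 11.9 FPKM in PF 4N+, PF 4N-, TTF 4N+ and TTF 4N- against 2.84 in the ESC. The lines were 3.34-fold higher on average, and the KO ESC was at 2.07. Tbx3, a T-box factor of the naive network, was at 5.67, 9.999, 16.1 and 14.3 FPKM against 1.87. Its lowest line, PF 4N+, was 2.24-fold above the ESC, and the lines spread by an SD of 0.65. Tcl1, an AKT coactivator that promotes self-renewal, was at 27.1, 34.1, 34 and 28.7 FPKM against 8.30, or 3.51-fold.

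Klf4 was the most even of the reprogramming factors, at 30.5, 29.3, 29.7 and 29.8 FPKM against 17.7 in the ESC, a difference of 0.76 ± 0.05. Pou5f1 was at 266, 279, 424 and 454 FPKM against 265. Both TTF lines were above the ESC and both PF lines near it. Sox2 was below the ESC in every line, at 119, 85.7, 120 and 102 FPKM against 142, which is 1.31-fold on average. Myc was at 5.74, 2.09, 4.57 and 8.21 FPKM against 7.61, with the ESC inside the range of the lines. These levels sum over the native gene and any factor copy that matches the counted transcript.

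Genes with the ESC above all 4 lines included Lin28b and Lin28a, which block maturation of let-7 microRNAs, and Dppa3, which protects the maternal genome from demethylation. Lin28a was at 52.9, 54.3, 89.9 and 90.6 FPKM in PF 4N+, PF 4N-, TTF 4N+ and TTF 4N- against 126 in the ESC. Dppa3 was at 9.43, 9.65, 23.5 and 23.8 FPKM against 28.9. In both genes the PF lines were the lowest and the TTF lines lay nearer the ESC. Lin28b had no such split, at 6.42 to 10.5 FPKM against 17.2. Klf2 did split, with 9.28 and 8.22 FPKM in the PF lines, 28.6 and 27.9 in the TTF lines and 12.1 in the ESC, which thus lay between the 2 sources. The median of the 37 genes was -0.21 in PF 4N+, -0.06 in PF 4N-, 0.24 in TTF 4N+ and 0.16 in TTF 4N-.

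**Figure D2:**
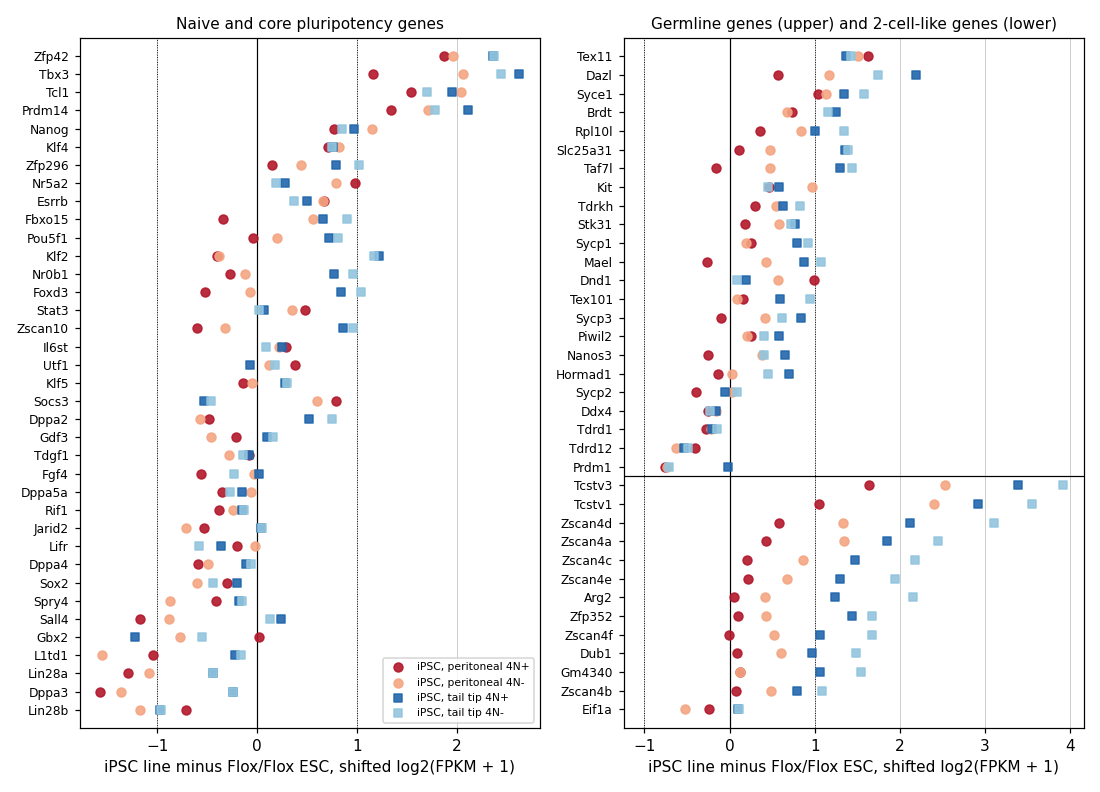
Difference of each iPSC line from the Flox/Flox ESC, as shifted log2(FPKM + 1), for the measured naive and core pluripotency genes (left) and for germline and 2-cell-like genes (right), with 1 point per line and dotted lines at 2-fold. Zfp42, Tbx3, Tcl1 and Prdm14 have all 4 points beyond the right dotted line. Most 2-cell-like genes have the blue TTF points to the right of the red PF points, and Eif1a lies near 0.

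Many genes of the germ line were above the ESC, untested as a group. Of 23 measured, 19 were at 1 FPKM or more in the ESC, and of these 10 had the ESC below all 4 lines (28.8% of such genes did) and 4 had it above (27.2% did). Their median difference was 0.52, beside 0.01 over all such genes. Over the 23 measured, the KO ESC was also above the Flox/Flox ESC, by a median of 0.44. A raised median of this list was thus not particular to the iPSC lines. Called higher were Tex11 and Syce1, both parts of meiotic chromosome pairing. Tex11 was at 11.8, 9.46, 9.06 and 9.57 FPKM in PF 4N+, PF 4N-, TTF 4N+ and TTF 4N- against 3.02 in the Flox/Flox ESC and 2.97 in the KO ESC, or 2.80-fold with lines that hardly differed. Syce1 was at 11.7 to 17.4 FPKM against 5.31. Dazl, an RNA-binding protein of germ cells, was at 4.81, 6.82, 15.8 and 11.4 FPKM against 2.79. Its PF 4N+ line stayed under 2-fold, so it was not called. Ddx4, the germ cell helicase, lay lower than in the ESC in every line, at 18.2 to 19.2 FPKM against 22.3.

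Beyond the list, and picked after their values were seen, Fkbp6 and Gpat2 were also called higher. Fkbp6, a chaperone of the piRNA pathway, was at 4.71 to 14.2 FPKM in the lines against 1.18 in the ESC, and its call was lost when the KO ESC was asked too. Gpat2, likewise known from male germ cells, was at 4.64 to 6.0 FPKM against 1.07, but the KO ESC was at 7.94, above all 4 lines.

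The genes of the 2-cell-like state, a rare state in ESC cultures that resembles the cleavage embryo, were at or near 0 in the Flox/Flox ESC. Only Eif1a of the 13 measured reached 1 FPKM there, and its mean difference was -0.14. The other 12 passed the minimum only through the iPSC lines, which largely sets their direction, so no count of members above the ESC is given. Between the lines, the median difference of the 13 was 0.12 in PF 4N+, 0.60 in PF 4N-, 1.29 in TTF 4N+ and 1.95 in TTF 4N-. Zscan4d, a member of the cluster that marks this state, was at 0.756, 1.61, 3.78 and 8.53 FPKM in the lines against 0.135 in the Flox/Flox ESC, and the KO ESC was at 1.69, within the range of the lines. Tcstv3 was at 2.97, 5.58, 11.5 and 17.2 FPKM against 0.238, and Tcstv1 at 2.36, 6.58, 10.4 and 16.8 against 0.564. Both TTF lines were above both PF lines in each of these genes. Zscan4 genes and the Tcstv genes have near copies, and their reads could be split between them. In a bulk library, a larger share of cells in this state and a higher level per cell cannot be told apart.

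Among the genes ranked lowest in the iPSC lines, several were regulators of neural and endocrine cells. Olig2, a factor of motor neuron and oligodendrocyte precursors, was at 2.65, 3.31, 3.01 and 2.89 FPKM in PF 4N+, PF 4N-, TTF 4N+ and TTF 4N- against 13.7 in the Flox/Flox ESC and 4.54 in the KO ESC. The lines agreed closely, with a difference of -1.85 ± 0.17, and the Flox/Flox ESC alone was high. Insm1, a zinc finger factor of neuroendocrine cells, was at 0.312 to 0.760 FPKM against 5.74 in the Flox/Flox ESC and 1.76 in the KO ESC. Sox11, of young neurons, was at 1.57 to 2.71 FPKM against 9.44. Neurod1, a neural and islet cell factor, was at 1.81 to 3.45 FPKM against 8.78, and its call was lost with the upper quartile or the reference genes as the common level, without chromosomes 6, 8, 11 and 17, and when the KO ESC was asked too. Olig1, the neighbour of Olig2, and Hes6, an inhibitor of HES1, were picked after their values were seen: Olig1 was at 3.85 to 5.52 FPKM against 12.5 and Hes6 at 5.74 to 11.3 against 32.3. Both calls were lost when the KO ESC was asked too, and that of Olig1 also with reference genes as the common level.

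The neural list did not move as a whole. Of its 8 measured members, 3 were called lower (Olig2, Sox11 and Neurod1), where 0.528% of all measured genes were. Of the 7 at 1 FPKM or more in the ESC, 3 had it below all lines (42.9%, beside 28.8% of all genes at that level). Another 3 had it above all lines (42.9%, beside 27.2%). Pax6, a factor of neural progenitors and eye, was at 2.91 to 3.68 FPKM in the lines against 1.12 in the ESC. Tubb3, the neuronal tubulin, was at 14.2 to 19.2 FPKM against 8.07. The list's median was 0.32, but it was -0.58 over members that reached 5 FPKM and -0.54 without chromosomes 6, 8, 11 and 17.

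The rest of the ranked lower genes had varied roles. Crisp1, a secreted protein of the epididymis, was at 0.0372, 0.0929, 0.558 and 0.364 FPKM in the lines against 8.44 in the Flox/Flox ESC. Spna1, the spectrin of red cells, was at 0.956 to 1.85 FPKM against 15.1, and Enpp2, the enzyme that makes lysophosphatidic acid, at 0.311 to 1.35 against 9.47. In the KO ESC these 3 were at 1.69, 2.88 and 1.2 FPKM, nearer to the iPSC lines than to the Flox/Flox ESC. Sepp1, which carries selenium, was at 1.11 to 2.82 FPKM against 13.7. Slc40a1, the iron exporter ferroportin, was at 0.901 to 1.84 FPKM against 7.94 and 12.6 in the 2 ESC libraries. Ubd, a ubiquitin-like protein induced by interferon, was at 0.123 to 1.11 FPKM against 6.59 and 6.04.

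Dusp1, a phosphatase of MAP kinases, was at 17, 12.6, 14.6 and 14.3 FPKM against 49.6 in the Flox/Flox ESC and 47.1 in the KO ESC. Here both ESC libraries were alike and the 4 lines were alike, with a difference of -1.66 ± 0.10. Zdbf2, an imprinted gene whose level in adult tissue is set by a transcript of the early embryo, was at 5.66 to 6.53 FPKM against 23.9 and 10.2. Hmgn5, a nucleosome-binding protein, was at 17.1, 9.01, 16.6 and 17.5 FPKM against 55.5 and 18.2. Cxcl12, a chemokine, was at 0.433 to 1.83 FPKM against 6.99. Dok2, an adaptor of receptor signalling, was at 1.59 to 4.34 FPKM against 17.8, and Lgals9, a galectin, at 3.64 to 8.45 against 27.0.

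Asked of both ESC libraries at once, 11 of the named higher genes lost their call (among them Vim, Tbx3, Sohlh2, Syce1 and the Tcstv genes) and 14 of the named lower genes did (among them Olig2, Sox11, Insm1, Crisp1, Hmgn5 and Zdbf2). Mid1, Zfp42, Tcl1, Prdm14, Tex11, Dusp1, Slc40a1 and Ubd kept theirs. The KO ESC library itself had raised trophoblast keratins (Krt8 at 188 FPKM, against 4.43 to 13.1 in the lines and 6.80 in the Flox/Flox ESC) and Igf2 at 426 FPKM.

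**Figure D3:**
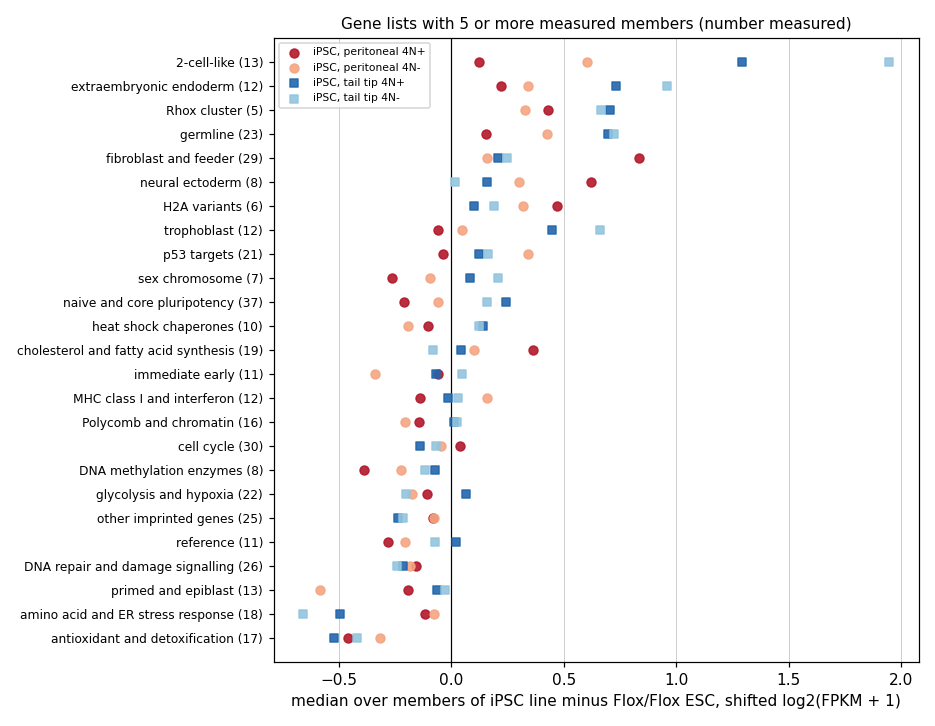
Median difference from the Flox/Flox ESC over the measured members of each gene list, with 1 point per iPSC line, on shifted log2(FPKM + 1), for lists with 5 or more measured members. The 2-cell-like list spreads from 0.12 in PF 4N+ to 1.95 in TTF 4N-, and all 4 points of the antioxidant list lie between -0.52 and -0.32.

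Genes of the primed state, which follows the naive one at implantation, were little apart from the ESC. In 5 of 13 measured the ESC was above all lines (38.5%, beside 24.9% of all measured genes), in 1 it was below, and none was called. Otx2, a factor that drives the exit from the naive state, was at 6.83 and 7.38 FPKM in the PF lines, 31.9 and 26.2 in the TTF lines and 19.5 in the ESC. Lefty1, a target and inhibitor of Nodal, was at 16.4, 6.89, 43.9 and 46.0 FPKM against 16.8. Both genes separated the 2 sources of fibroblasts with the ESC between or beside them, and the list's median was -0.57 over the PF pair alone and 0.26 over the TTF pair alone.

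The enzymes that set DNA methylation de novo were below the ESC in every line. Dnmt3b was at 31.4, 21.1, 47.4 and 58.3 FPKM in PF 4N+, PF 4N-, TTF 4N+ and TTF 4N- against 89.4 in the ESC, or 2.33-fold lower on average, and missed the call through the TTF lines. Dnmt3a was at 11.4 to 26.1 FPKM against 35.8, and Tet1, which oxidises methylated cytosine, at 49.9 to 64.8 against 82.1. Dnmt1, the maintenance enzyme, was at 46.9 to 58.3 FPKM against 56.0. In the KO ESC, Dnmt3b was at 36.0 FPKM and Tet1 at 21.5. The list of 8 had a median of -0.09, which turned to 0.11 with reference genes as the common level.

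H2afx, the gene of H2A.X, is carried as the floxed allele in the ESC. It was at 69.1, 75.2, 70.9 and 65.3 FPKM in the iPSC lines, 34.9 in the Flox/Flox ESC and 6.18 in the KO ESC. All lines were close to each other and above the ESC by 1.02 ± 0.14, or 2.03-fold, and the lowest, at 1.89-fold, kept the gene from the call. H2A.X is the histone variant phosphorylated beside DNA breaks. Of 26 DNA repair and damage signalling genes, all at 1 FPKM or more in the ESC, none was called, and the median was -0.23. The ESC was above all lines in 12 (46.2%, beside 27.2% of all genes at that level) and below in 2 (7.69%, beside 28.8%). Prkdc, the catalytic subunit of the end-joining kinase, was at 8.83, 9.73, 5.64 and 5.37 FPKM against 11.9. Atm, the kinase that phosphorylates H2A.X, was at 9.29 to 10.6 FPKM against 15.8. With reference genes as the common level the median was -0.03, and the DNA repair list thus followed the choice of scale. Among 21 p53 targets, all at 1 FPKM or more in the ESC, none was called, and the median was 0.14. In 9 the ESC lay below all lines (42.9%, beside 28.8% of all genes at that level) and in 1 above (4.76%, beside 27.2%). Phlda3, an AKT inhibitor, was at 11.9 to 15.8 FPKM against 8.69. The KO ESC lay to the same sides of the Flox/Flox ESC, with a median of -0.47 for the DNA repair list and 0.83 for the p53 targets. Neither direction was thus particular to the iPSC lines.

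Antioxidant and detoxification genes were split. All 17 were at 1 FPKM or more in the ESC. In 10 the ESC was above all lines (58.8%, beside 27.2% of all genes at that level) and in 5 below (29.4%, beside 28.8%). The median was -0.48 and ranged from -0.58 to -0.28 over the alternatives. Gpx2, a glutathione peroxidase, was the only one called, at 8.72, 5.56, 6.31 and 5.51 FPKM against 23.0. The 2 subunits of the enzyme that begins glutathione synthesis were Gclc, at 23.0 to 28.0 FPKM against 43.6, and Gclm, at 25.0 to 35.4 against 60.7. Txnrd1, thioredoxin reductase, was at 82.0 to 121 FPKM against 177. Sod1, superoxide dismutase, lay the other way at 339 to 360 FPKM against 277, as did Gpx4 at 36.5 to 62.9 against 29.1.

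All 18 measured genes of the amino acid and ER stress response were at 1 FPKM or more in the ESC. In 8 the ESC was above all lines (44.4%, beside 27.2% of all genes at that level) and in 1 below (5.56%, beside 28.8%). The list's median was -0.28, and -0.09 with reference genes as the common level. In the KO ESC its median against the Flox/Flox ESC was -0.40. Atf4, the factor that controls them, was at 119, 87.8, 83.5 and 79.5 FPKM against 186 in the ESC and 107 in the KO ESC. Trib3, one of its targets, was at 5.56 to 6.32 FPKM against 12. Ddit3, another, parted the sources, with 23.3 and 21.2 FPKM in the PF lines, 5.92 and 5.23 in the TTF lines and 14.8 in the ESC. Of 11 immediate early genes, all at 1 FPKM or more in the ESC, the median was 0.03, with no common direction. The ESC was below all lines in 4 (36.4%, beside 28.8% of all genes at that level) and above in 5 (45.5%, beside 27.2%). Called lower were 2 (0.528% of all measured genes were), Dusp1 and Ier3, an early response gene at 12 to 19.1 FPKM against 51.5, beside Ier2 at 15.7 to 23.6 against 12.1. All 22 measured glycolysis and hypoxia genes were at 1 FPKM or more in the ESC. The ESC was below all lines in 6 (27.3%, beside 28.8% of all genes at that level) and above in 8 (36.4%, beside 27.2%). The median was -0.10, which became 0.10 with reference genes as the common level. Within the list, Adm, a vasodilator peptide, Ddit4, an mTOR inhibitor, and Egln3, a HIF hydroxylase, were below the ESC in every line. Adm was at 3.22 to 5.57 FPKM against 13.5 and was called, except with reference genes as the common level or when the KO ESC was asked too. Ddit4 was at 45.3 to 90.4 FPKM against 179, and Egln3 at 15 to 35.5 against 64.6. In the same list the glucose transporter Slc2a1 was at 208 to 275 FPKM against 146 and Pfkp, a phosphofructokinase, at 72.2 to 88.9 against 45.0.

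Of the markers of the parental fibroblasts or of feeder cells, 29 were measured, of which 16 passed the 1 FPKM minimum only through an iPSC line. Over the other 13, the ESC was below all lines in 5 (38.5%, beside 28.8% of such genes), above in 1 and within their range in 7, and the median was 0.35. Between the lines, the median of the 29 was 0.83 in PF 4N+ and 0.16 to 0.25 in the other 3. The defining collagens were near 0 except in PF 4N+: Col1a2 was at 5.41, 0.0228, 0.0856 and 0.146 FPKM in PF 4N+, PF 4N-, TTF 4N+ and TTF 4N- against 0.069 in the ESC. Col1a1 was at 2.12, 0.226, 0.188 and 0.218 FPKM against 0.0402, and S100a4, a calcium-binding protein of motile cells, at 40.1, 0.153, 0.630 and 0.665 against 0.340. Vim was at 32.3 to 52.5 FPKM in the 3 lines whose Col1a2 was below 0.2 FPKM, above the 8.37 of the ESC, and Thy1, a surface antigen of fibroblasts, was at 2.84 to 7.49 FPKM against 1.55. The summed level of the list was 528 FPKM in PF 4N+, 273 to 346 in the other lines, 272 in the Flox/Flox ESC and 1088 in the KO ESC. The part of fibroblast RNA in the other differences of PF 4N+ was not tested.

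Markers of other cell types were low or mixed. Of 10 macrophage markers 3 were measured, and 2 of the 10 were at 0 in the ESC, with a summed level of 17.5 to 44.6 FPKM in the lines against 24.0 in the ESC. Of 9 trophoblast genes at 1 FPKM or more in the ESC, 2 had it below all lines (22.2%, beside 28.8% of all genes at that level). None had it above all lines, where 27.2% of genes at that level did. The trophoblast list had a summed level of 45.1 to 106 FPKM against 58.8. For extraembryonic endoderm, 7 of 12 measured genes reached 1 FPKM in the ESC, and 3 of the 7 had the ESC below all lines (28.8% of such genes did), the basement membrane genes Col4a1, Col4a2 and Lama1. Lama1 was at 7.61 to 9.90 FPKM against 3.36 and was called, though not with the shift left out, while Col4a1 was at 7.28 to 9.88 against 3.33. Gata4, a defining factor of that lineage, was at 1.02 to 1.81 FPKM against 0.598. The summed level of this list was 138 to 161 FPKM in the lines and 135 in the ESC.

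The maternally expressed RNAs of the imprinted Dlk1-Dio3 region separated the iPSC lines by label. Meg3 was at 44.1 FPKM in PF 4N+ and 28.0 in TTF 4N+, but at 0.188 in PF 4N- and 1.52 in TTF 4N-, against 0.202 in the Flox/Flox ESC. Rian was at 58.1, 0.200, 39.5 and 2.31 FPKM in PF 4N+, PF 4N-, TTF 4N+ and TTF 4N- against 0.25. Mirg, a host of microRNAs, was at 8.64, 0.0411, 8.51 and 0.493 FPKM against 0.0733. Both 4N+ lines were thus far above the ESC, while PF 4N- was no higher than the ESC. TTF 4N- lay between, with Meg3 and Rian above the ESC by 1.1 and 1.44 on the log2 scale, which is past 2-fold. None of the 3 was called. The protein-coding gene Dlk1 of the region was at 0.193 to 0.544 FPKM in the lines and 0.097 in the ESC, below the level counted as measured.

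Among 25 other imprinted genes, 11 had the ESC above all lines (44.0%, beside 24.9% of all measured genes), 6 had it below (24.0%, beside 32.2%), and the median was -0.12, which became 0.08 with reference genes as the common level. H19, a growth-limiting RNA expressed from the maternal copy, was called higher at 6.62, 3.61, 4.59 and 6.73 FPKM against 1.44 in the Flox/Flox ESC and 13.9 in the KO ESC, though not with the shift left out or when the KO ESC was asked too. Its neighbour Igf2, expressed from the paternal copy, was at 2.45, 5.0, 11.3 and 16.3 FPKM against 14.7. Peg3, a paternally expressed zinc finger gene, was at 20.9, 36.3, 4.46 and 8.99 FPKM against 67.5, the PF lines above the TTF lines and all below the ESC. Mest, also paternally expressed, was at 31.7 and 43.6 FPKM in the PF lines, 1.86 and 3.15 in the TTF lines and 27.8 in the ESC. Grb10 was at 8.22, 25.2, 24.3 and 13.4 FPKM against 43.0, and Snrpn at 30.1 to 52.3 against 75.2.

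Sex chromosome genes did not share a direction. Xist, which coats and silences the inactive X, was at 0.38 to 0.621 FPKM in the lines and 0.975 in the ESC, below the level counted as measured in all 5. Eif2s3y, on the Y chromosome, was at 0.0577, 0.115, 2.46 and 25.3 FPKM in PF 4N+, PF 4N-, TTF 4N+ and TTF 4N- against 0.167. Only TTF 4N- had it at a high level, and TTF 4N+ lay between, while Ddx3y, also on the Y, was at 0.0508, 0.0152, 1.36 and 6.79 FPKM against 0.253. The sex of the cultures is not stated in the labels.

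**Figure D4:**
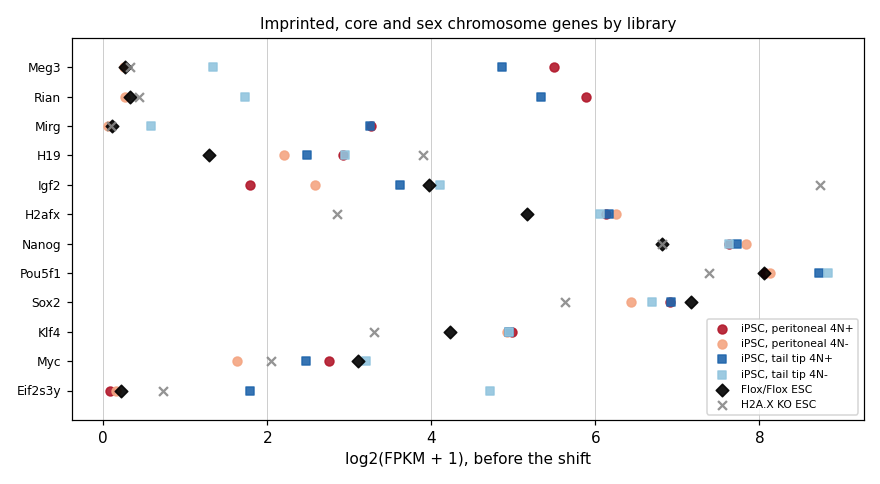
Levels of 12 imprinted, core and sex chromosome genes in each library, as log2(FPKM + 1) before the shift. Meg3, Rian and Mirg have both 4N+ lines far to the right of the ESC and PF 4N- beside it, Nanog, Klf4 and H2afx have 4 close iPSC points right of the ESC, and Eif2s3y spreads from 0.0577 to 25.3 FPKM over the lines.

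Whole chromosomes differed in the PF lines. Over genes at 5 FPKM or more in all 5 libraries, the 368 on chromosome 8 had a median difference from the ESC of 0.32 in PF 4N+ and 0.49 in PF 4N-, but 0.06 in TTF 4N+ and 0.07 in TTF 4N-. In PF 4N-, 88.3% of them were above the ESC, and in PF 4N+ 84.0%. Cut into 4 segments with equal numbers of genes, the chromosome had a raised median in every segment in both PF lines, between 0.17 and 0.40 in PF 4N+ and between 0.35 and 0.56 in PF 4N-. PF 4N+ also stood apart on chromosome 11 (0.29 over 556 genes), chromosome 6 (0.22 over 288 genes) and chromosome 17 (-0.27 over 311 genes). Its medians over such segments ran from 0.19 to 0.38 on chromosome 11, from 0.18 to 0.24 on chromosome 6 and from -0.39 to -0.16 on chromosome 17. The whole-chromosome medians of the other 3 lines were between -0.02 and 0.10 there. On the other 16 chromosomes the medians of any line lay between -0.18 and 0.13. DNA copy number was not measured.

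Zfp42 is on chromosome 8, and Nanog and Stra8 are on chromosome 6. Without chromosomes 6, 8, 11 and 17, 67 genes were higher and 47 lower among 9118 measured. The other 16 chromosomes included X, where the 210 genes had a median between -0.18 and -0.10 in every line, and chromosome 7, where the 450 genes had a median between 0.09 and 0.13. The KO ESC differed from the Flox/Flox ESC in like manner, by -0.16 on X and 0.08 on chromosome 7.

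**Figure D5:**
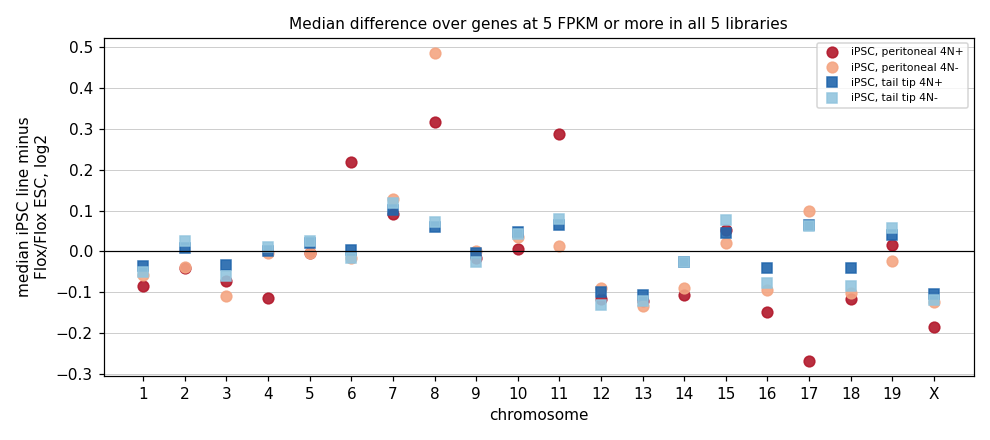
Median difference of each iPSC line from the Flox/Flox ESC per chromosome, in log2, over genes at 5 FPKM or more in all 5 libraries, with 1 point per line. The red PF points stand above the rest on chromosome 8, at 0.32 and 0.49, and PF 4N+ alone stands apart on chromosomes 6, 11 and 17.

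Differences also followed transcript length. Of the genes that set the common median, 90.4% could be matched to an annotated length. The 145 with transcripts of at most 500 bases had medians of 0.11 to 0.22 over the 4 lines, and the 670 with transcripts over 3000 bases had medians of -0.17 to -0.10. The KO ESC, against the Flox/Flox ESC, had medians of 0.11 and -0.14 in the same classes. Ribosomal protein genes, which make short transcripts and were chosen as a group after their values were seen, had 43 of 81 above the ESC in all lines (32.2% of all measured genes were), 15 below (24.9% of all) and a median of 0.24. Called higher were 5, where 0.67% of all were. Rpl35 was at 24.7, 21.3, 23.3 and 23.6 FPKM against 3.64 in the Flox/Flox ESC and 7.23 in the KO ESC, the most even of the higher genes with a difference of 2.42 ± 0.03, and its entry overlaps Wdr38. Rpl37 was at 69.0 to 87.2 FPKM against 20.3. Rpl7a, Rps21 and Rps7 have near-identical copies elsewhere in the genome, so that their levels are uncertain, and the call of Rps7 was lost with the shift left out and that of Rps21 when the KO ESC was asked too. At the other end, the long nuclear RNAs Malat1 and Neat1, picked after their values were seen, were called lower: Malat1 was at 226, 201, 144 and 90.1 FPKM against 506, and Neat1 at 42.2 to 61.6 against 147. Both calls were lost with reference genes as the common level, and that of Neat1 also when the KO ESC was asked too. Limited to genes with transcripts of 1000 bases or more, 39 were higher and 35 lower among 6642 measured. The part of RNA quality or library preparation in the length trend was not tested.

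Near-identical transcripts of another gene were sought at 95% identity over at least 50% of the longest transcript. They were found for 13 of the 75 higher genes that could be matched to the GRCm38 annotation and for 2 of 53 lower genes. Overlapping genes at the same locus were not left out of these counts, as with Wdr38 for Rpl35 and Ccnb1ip1 for Rpph1. Nnt, whose deletion in some C57 strains is known, was at 7.45, 5.67, 4.33 and 4.60 FPKM in the lines against 19.1 in the Flox/Flox ESC and 14.0 in the KO ESC, and was called lower, except with reference genes as the common level. It is the only measured gene of the list known to vary between 129 and C57 strains. Strain and cell type cannot be told apart in any result given above.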

How the data were processed

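Total RNA went into TruSeq mRNA libraries, per the labels' protocols. CASAVA, TopHat2 and the build mm9 are named in the submitters' processing notes; versions, the quantifying program, annotation and strand use are not given there. The authors deposited 3 tables of 2 libraries each over 22558 gene names, whose values were taken as FPKM from the column layout and the values. Of these names, 723 of small RNAs were left out. Values became log2(FPKM + 1), which understates changes of low genes, and each library was shifted to a common median, set by the 6449 genes that reached 5 FPKM in every library (shifts of -0.08 to 0.09 in the iPSC lines and -0.03 in the ESC). The shift also moves values near 0.

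Measured genes reached 1 FPKM in at least 1 library, and a call needed 2-fold in all 4 iPSC lines. Named genes were the 15 ranked highest and 15 lowest by their smallest difference (clone names left out, 5 FPKM in at least 1 library), called members and members near the median of 31 lists, and genes always named. The lists hold 573 entries, of which 569 were found, and the other entries are not analysed here. Members, lists and comparison were chosen with earlier results of these data known. Effective depth was the divisor that made the values of 1171 intronless receptor genes whole within 0.05; it is not the number of mapped reads. Copies were sought with blastn in GENCODE transcripts of GRCm38. Calls were tested on simulated data. Python 3.11.15, pandas 2.3.3 and numpy 2.4.6 were used.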

Additional observations from a re-analysis of the deposited data

Results flagged for a closer look

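In 10 of 163 genes, lists and chromosomes 1 iPSC line stood far from the other 3 in its difference from the Flox/Flox ESC (all values are log2 differences). Chance alone flags about 1 in 20 groups of this size. For Hmgn5, PF 4N- was at -2.37 and the other lines at -1.69 to -1.57. For Cxcl12, PF 4N- was at -2.36 and the other lines at -1.66 to -1.55. For Mkrn3, TTF 4N- was at -0.22 and the other lines at -0.09 to -0.075. For Tsix, PF 4N+ was at -0.16 and the other lines at 0.17 to 0.23. For Perp, PF 4N+ was at -0.58 and the other lines at 0.32 to 0.48. For Hoxc13, PF 4N- was at 1.19 and the other lines at 0.12 to 0.25. For the fibroblast and feeder list, PF 4N+ was at 0.83 and the other lines at 0.16 to 0.25. For chromosome 4, PF 4N+ was at -0.11 and the other lines at -0.0032 to 0.0097. For chromosome 6, PF 4N+ was at 0.22 and the other lines at -0.017 to 0.0041. For chromosome 17, PF 4N+ was at -0.27 and the other lines at 0.063 to 0.10.

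In 22 results both lines of 1 fibroblast source lay to 1 side of the ESC and both lines of the other source to the opposite side. The difference between the sources was not tested. The means of the PF and of the TTF pair follow in this order. They were -0.094 and 0.29 for Klf5, 0.69 and -0.50 for Socs3, -0.29 and 0.66 for Krt8 and 0.079 and -0.071 for Axin2. The pairs stood at 0.076 and -0.24 for Gnas, 0.0047 and -0.20 for Dnmt1, -0.30 and 0.30 for Eed and 0.59 and -1.23 for Ddit3. They were -0.81 and 0.32 for Slc7a3, -0.29 and 0.52 for Cryab, -0.014 and 0.17 for Hspe1 and -0.25 and 0.073 for Ldha. The pairs stood at 0.28 and -0.29 for Bst2, -0.73 and 0.32 for Actb, -0.14 and 0.20 for the naive and core pluripotency list and -0.19 and 0.35 for the reprogramming vector genes list. They were -0.18 and 0.15 for the sex chromosome list, -0.17 and 0.018 for the Polycomb and chromatin list, -0.15 and 0.13 for the heat shock chaperones list and -0.038 and 0.017 for chromosome 2. The pairs stood at -0.059 and 0.0058 for chromosome 4 and -0.0036 and 0.024 for chromosome 5.

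In 4 results the 4N+ pair and the 4N- pair lay on opposite sides of the ESC, also untested. For Atf3 the means were -0.063 in the 4N+ and 0.12 in the 4N- lines. For Tap1 the means were -0.24 in the 4N+ and 0.37 in the 4N- lines. For the MHC class I and interferon list the means were -0.077 in the 4N+ and 0.095 in the 4N- lines. For chromosome 6 the means were 0.11 in the 4N+ and -0.017 in the 4N- lines.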

How the results depend on the processing

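A pseudocount of 0.1 gave 261 genes higher and 113 lower, with 69.8% of the calls higher. A minimum of 5 FPKM left 2439 genes with the ESC below all lines. With the median of reference genes as the common level, 149 were higher, 39 lower, 5939 had the ESC below all lines and 1265 above. The PF pair alone gave 227 higher and 169 lower, and the TTF pair alone 250 higher, 146 lower and 4846 with the ESC above. Asking the same of the KO ESC left 22 and 18, with 1251 below and 1423 above. Transcripts of 1000 bases or more, an alternative chosen after seeing the data, gave 39 and 35, with 2067 and 1762, among fewer genes tested. Leaving out 1 line gave 92 to 123 higher (123 without PF 4N+), 68 to 79 lower, 4053 to 4320 with the ESC below and 3177 to 3547 above.

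All other counts stayed within 1.5 times, among them no shift (70 and 70), small RNA names kept, no filter on low values and 3 more settings chosen after the data were seen. These were scaling before the logarithm (80 and 65), leaving out chromosomes 6, 8, 11 and 17, and leaving out failed estimates. Of the differences of named genes, 1871 values under the alternatives moved by less than 1 SD over the lines and 74 by more, and no called gene changed sign. List medians were less stable, with 496 values that moved by less than 1 SD and 61 by more, and some changed sign. For chromosome medians the numbers were 282 and 74. No paired analysis was possible because the ESC is 1 library with no replicate in the iPSC group's numbering. Depth limits the low genes: a value listed at 0 is not shown to be absent.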
